A study of Mus musculus with 8 samples.

Results

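The genes described here are the classical axon guidance ligands and receptors of the mouse striatum: the semaphorins with their neuropilin and plexin receptors, the Slits and Robos, the ephrins and Eph receptors, and the netrins with Dcc and the Unc5 receptors. Members were taken from the count table by gene symbol alone, as every row named as a semaphorin of class 3 to 7, a plexin, Nrp1 or Nrp2, Slit1 to Slit3, Robo1 to Robo4, an ephrin, an Eph receptor, a netrin or netrin-G, Dcc or Unc5a to Unc5d. This rule found 71 of 55376 features, of which 37 were ligands and 34 were receptors, in 13 families. The rule itself uses no measured value, but the set of families was chosen with earlier results of these data known.

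RNA was sequenced from the left striatum of 4 deletion mice and 4 control mice, with 1 library per mouse. Deletion mice carried D9-Cre and the allele Bcl11b tm1.1Leid, which the sample titles spell tm1.1_Lead, and control mice were Cre-negative. Both groups were homozygous for the floxed Bcl11b allele, were on a C57Bl/129S2/Sv background, were 4 months old and were labelled female. No mice with Cre but without the floxed allele were sequenced, so effects of the deletion and of the transgene cannot be told apart. Bcl11b (also called Ctip2) encodes a zinc-finger transcription factor of medium spiny neurons (MSNs), the projection neurons that make up most of the striatum. The D9 transgene places Cre under regulatory elements of Ppp1r1b (DARPP-32), so the deletion is directed to postnatal MSNs, while the sequenced tissue also held interneurons, glia, vessel cells and incoming axons. Bulk tissue cannot show which cells a transcript came from, and fewer cells of a type and less RNA per cell cannot be told apart.

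Guidance cues are secreted or membrane-bound proteins that attract or repel growing axons, and their receptors pass the signal to small GTPases and the actin and microtubule skeleton of the growth cone. The same molecules remain in the adult brain, where they take part in spine and synapse maintenance. In the mouse striatum, semaphorin 3E and its receptor plexin D1 are known for limiting thalamic synapses onto direct-pathway MSNs, and EphA4 and ephrins for the segregation of striosome and matrix compartments.

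More guidance genes were higher than lower in deletion mice, and the share that was lower was close to that of all genes tested. Differences were tested on the raw counts with edgeR's quasi-likelihood F-test over 22173 genes, and a gene passed at a Benjamini-Hochberg adjusted p under 0.01. Of the 71 members, 18 passed (25.4%), where 8.78% of all genes tested passed. Higher in deletion mice were 14 members (19.7%), against a background of 4.87%, and lower were 4 members (5.63%), against a background of 3.91%. The background of all genes tested was not matched to the members in expression level or gene type. All 71 members had passed the filter on low counts, and 53 did not pass the test. The members that rose were Sema3d, Sema3f, Sema4a, Sema4f, Plxna1, Plxna3, Plxna4, Slit1, Efna3, Efnb1, Epha6, Epha10, Ntn1 and Ntn4, and those that fell were Sema3a, Slit3, Plxnd1 and Dcc. The median log2 fold change of the 71 members was 0.18, beside -0.004 for all genes tested.

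Ligands and receptors were both among the genes that passed. Among the 37 ligands 9 rose, 2 fell and 26 did not pass, with a median log2 fold change of 0.22. Among the 34 receptors 5 rose, 2 fell and 27 did not pass, with a median log2 fold change of 0.14. No neuropilin, Robo, EphB or netrin-G gene passed. In 27 members (38.0%) the 4 deletion mice and the 4 control mice did not overlap, 20 with the deletion mice above and 7 with them below, where the groups did not overlap in 22.0% of all genes tested.

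**Figure D1:**
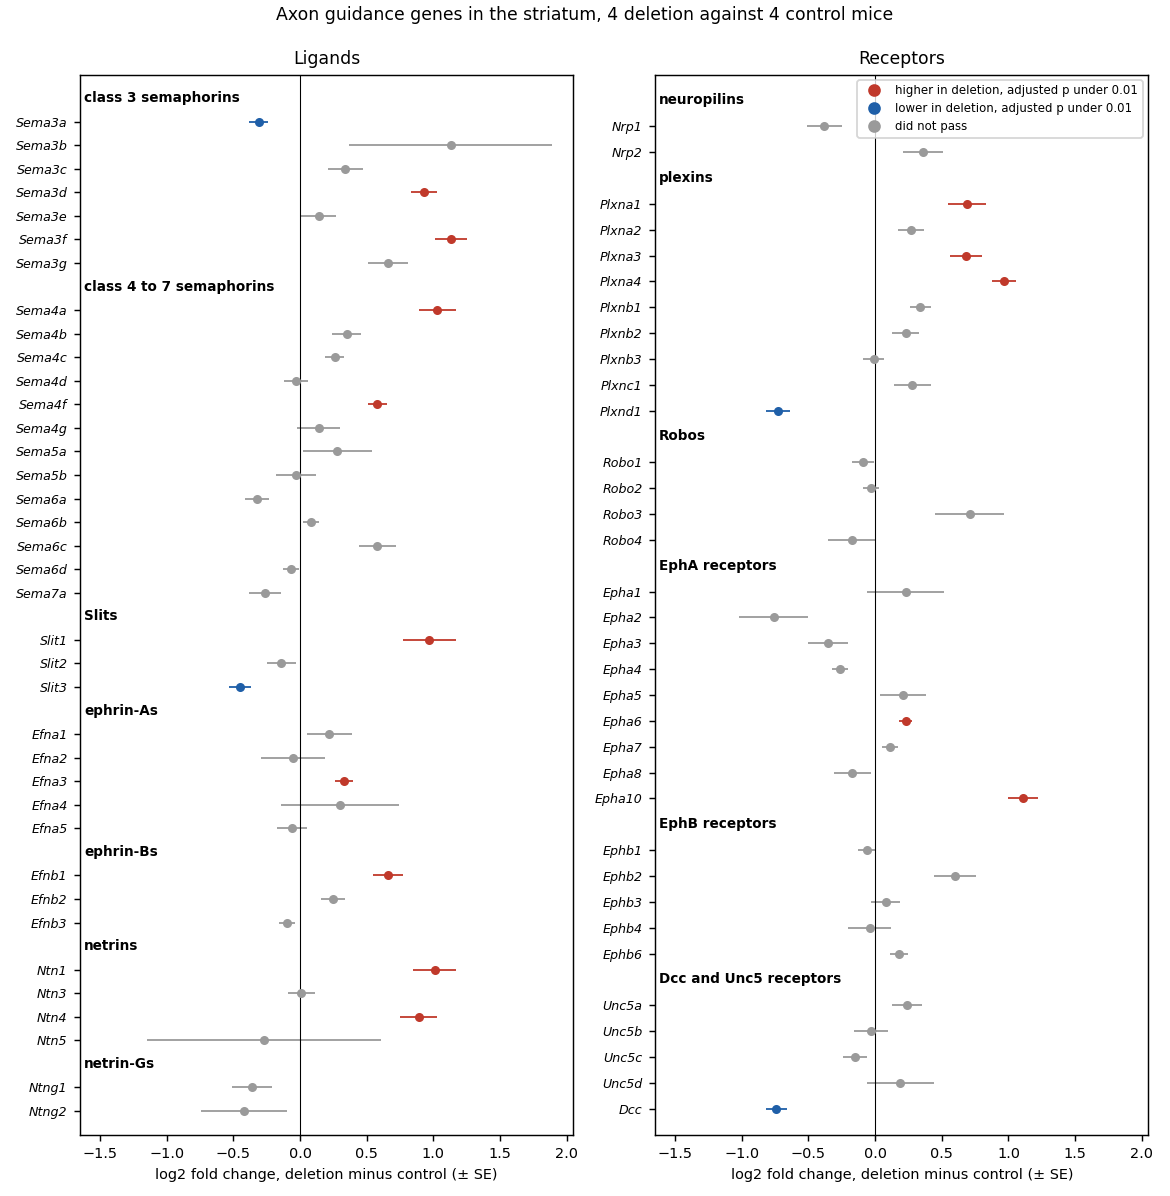
The log2 fold change of each of the 71 axon guidance genes (horizontal axis, deletion minus control, bars ± SE, n = 4 mice a group) is plotted by family, with ligands at left and receptors at right. Red marks genes higher and blue genes lower in deletion mice at an adjusted p under 0.01 from edgeR, and grey the rest. The 14 red points reach from 0.23 for Epha6 to 1.13 for Sema3f, and the 4 blue points from -0.31 for Sema3a to -0.74 for Dcc.

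Library depth was 51536311 to 70247098 counts in deletion mice and 47059264 to 50213377 counts in control mice, and the lowest count of any member past the threshold in any mouse was 239. Bcl11b was at 145, 141, 151 and 145 CPM (CPM are counts scaled to library size after TMM normalization) in deletion mice, against 477, 368, 446 and 281 CPM in control mice. The groups did not overlap, and the log2 fold change was -1.43 ± 0.13 (SE, adjusted p = 7.06e-05, edgeR). The counts cover the whole gene, including any exon outside the floxed part. Of the 10 MSN markers 4 fell (Ppp1r1b, Drd2, Penk and Pde10a), 0 rose and 6 did not pass. Among those 6, Tac1 and Pdyn had positive log2 fold changes of 0.47 (adjusted p = 0.0365, edgeR) and 0.10 (adjusted p = 0.843, edgeR). The summed level of the 10 markers was 5560 to 6110 CPM in deletion mice and 6450 to 7350 CPM in control mice. Of the other 11 marker lists, of interneurons, excitatory neurons, glia, vessel cells, ependyma or choroid plexus and leptomeninges, only the cortical excitatory list held a gene that passed (1 of 6, higher), and no marker was at 0 in every mouse. Their part in the changes of guidance genes was not tested. The cortical markers summed to 65.8 to 173 CPM in deletion mice and 68.8 to 162 CPM in control mice, with deletion 4 and control 4 the highest, and the ependymal and choroid plexus markers to 84.2 to 9630 CPM in deletion mice and 57.4 to 1680 CPM in control mice, with deletion 2 and control 1 the highest.

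**Figure D2:**
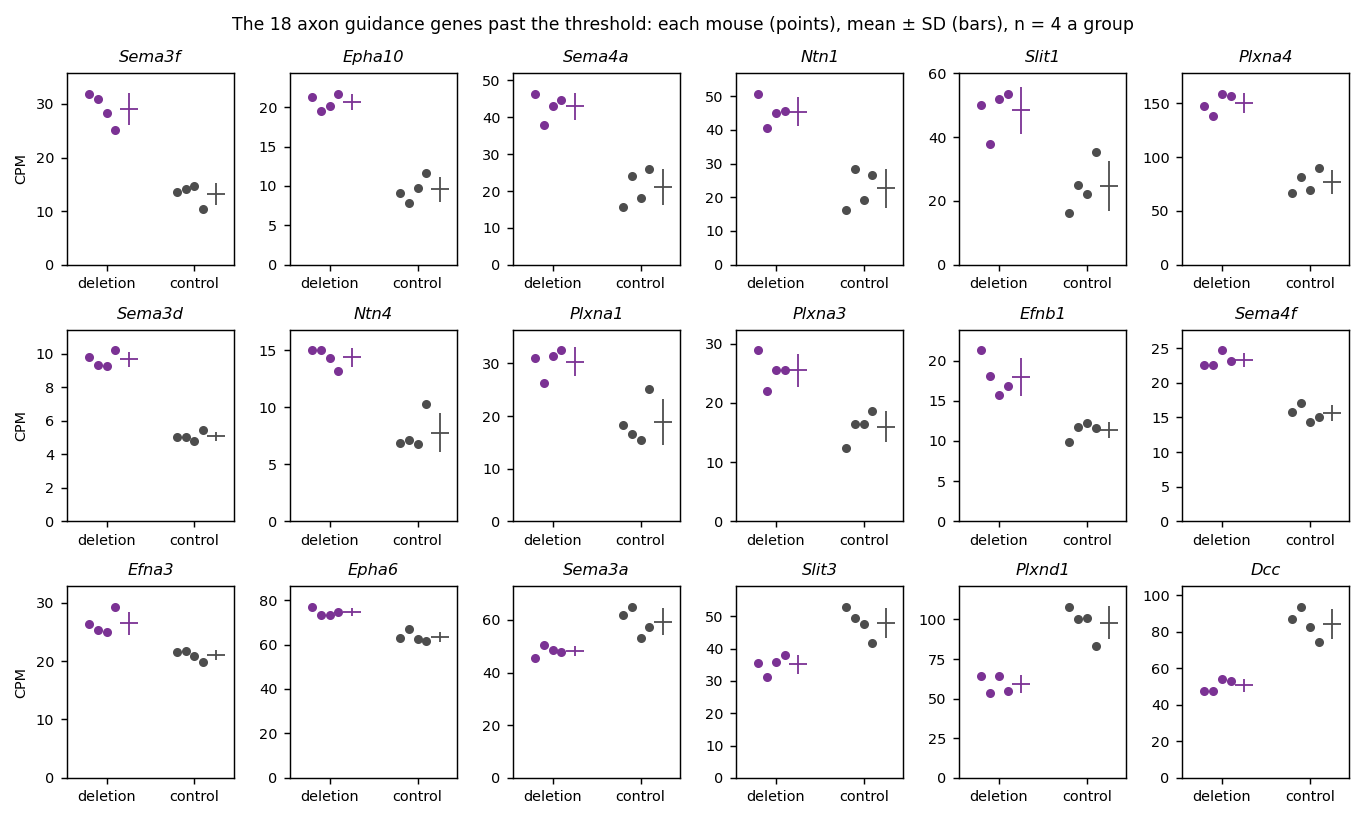
The level of each of the 18 genes past the threshold (vertical axis, CPM, from 0) is shown for each mouse, with deletion mice at left and control mice at right, and the bars beside the points are mean ± SD of 4 mice. In all 18 genes the deletion and control mice do not overlap, as in 22.0% of all genes tested. The 18 were picked by a test on the same values, and the share among all genes that passed was not computed. In 11 of the 18 genes control 4 was the control mouse nearest to the mean of the deletion mice on the log2 scale.

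Among the control mice, control 4 lay nearest to the deletion mice in 11 of the 18 genes past the threshold, control 2 in 4, control 3 in 3 and control 1 in 0. Control 4 also had the lowest Bcl11b of the control mice (281 CPM). Its summed cortical markers were the highest of the control mice (162 CPM, against 68.8 to 76.5 CPM in the others). The part of either in the gene differences was not tested, and the nearest control mouse was not tallied over all genes that passed.

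Promoter sequences are shown for 3 genes past the threshold, Epha10 and Ntn4 with the largest rises and Plxnd1 with the largest fall among the genes that had exactly 1 RefSeq start whose following bases lie in the annotated transcripts, a choice made after the values were seen. Each is the 250 bases before the start, from the coding strand, 5′ to 3′, in the GRCm38.p6 build. They lie at chr4:124881535-124881784 on the plus strand for Epha10, at chr10:93640799-93641048 on the plus strand for Ntn4 and at chr6:115995006-115995255 on the minus strand for Plxnd1. In the GENCODE M21 annotation Epha10 begins at base 124880899 and Ntn4 at base 93640681, so their windows lie inside the annotated genes. Only the Plxnd1 window lies outside its gene, which ends at base 115995005. Capitals mark matches to either of the searched words.
Epha10: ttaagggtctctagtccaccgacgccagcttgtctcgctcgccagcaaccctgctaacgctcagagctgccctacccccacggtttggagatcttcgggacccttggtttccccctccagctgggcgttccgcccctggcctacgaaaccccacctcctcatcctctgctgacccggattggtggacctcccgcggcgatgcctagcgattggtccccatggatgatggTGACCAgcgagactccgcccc
Ntn4: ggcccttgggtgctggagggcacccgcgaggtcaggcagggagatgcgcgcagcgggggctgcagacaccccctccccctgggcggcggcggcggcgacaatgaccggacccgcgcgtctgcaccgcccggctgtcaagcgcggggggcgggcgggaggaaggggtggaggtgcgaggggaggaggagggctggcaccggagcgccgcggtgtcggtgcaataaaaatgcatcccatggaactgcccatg
Plxnd1: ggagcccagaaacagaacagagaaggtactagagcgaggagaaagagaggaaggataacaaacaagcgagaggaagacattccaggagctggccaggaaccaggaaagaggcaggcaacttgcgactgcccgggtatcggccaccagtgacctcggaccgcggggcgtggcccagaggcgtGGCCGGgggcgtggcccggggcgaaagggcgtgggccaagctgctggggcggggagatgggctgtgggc

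The words were GGCCGG, a GC-rich core described for CTIP proteins, and TGACCA, which is bound by the Bcl11b paralog BCL11A, both sought on both strands. Epha10 held 1 TGACCA, Plxnd1 held 1 GGCCGG, and neither word was in the window of Ntn4, which had the highest GC content of the 3 windows (73.2%, beside 63.6% for Epha10 and 64.8% for Plxnd1). Of the 61 members that had a window, 26 (42.6%) held GGCCGG, as did 17.5% of the 27025 genes with a window. Among the 12 members past the threshold with a window, 5 (41.7%) held it, which is close to the share of all members. TGACCA was in 6 of 61 members (9.84%), in 2 of the 12 past the threshold (16.7%) and in 13% of all genes. A gene was counted if any of its windows held the word, and the shares were not matched for GC content or number of windows. A match is a description of the letters only.

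Class 3 semaphorins, the secreted members that bind neuropilins and class A plexins, held the largest rise of all 71 genes that passed, and their median log2 fold change was 0.66. Among its 7 genes, 2 passed upward and 1 downward. Sema3f, a repellent that acts through neuropilin-2, was at 31.9, 30.9, 28.3 and 25.1 CPM in deletion mice, against 13.6, 14.2, 14.7 and 10.3 CPM in control mice. Each deletion mouse lay well above each control mouse, and deletion 4 and control 4 were the lowest of their groups. The log2 fold change was 1.13 ± 0.12 (SE, adjusted p = 1.18e-04, edgeR). Sema3d, another secreted class 3 cue, was at 9.81, 9.31, 9.29 and 10.2 CPM in deletion mice, against 5.05, 5.0, 4.80 and 5.42 CPM in control mice. Both groups were tight and far apart, with a log2 fold change of 0.93 ± 0.10 (SE, adjusted p = 1.50e-04, edgeR).

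Sema3a, the repellent that signals through neuropilin-1, went the other way. It was at 45.6, 50.3, 48.4 and 47.9 CPM in deletion mice, against 62.0, 65.0, 53.1 and 57.4 CPM in control mice. The groups did not overlap, but deletion 2 and control 3 came close, and the log2 fold change of -0.31 ± 0.07 (SE) was just past the threshold (adjusted p = 0.00979, edgeR). The call was lost without deletion 1, 2, 3 or 4 or without control 1, 2 or 4 (adjusted p 0.0139 to 0.0350, edgeR), and held without control 3. It was also lost in 8 of the 13 other alternatives to the main fit, among them limma-voom, RLE size factors and the replicate block. Sema3d and Sema3a are neighbours on chromosome 5, 536 kb apart, and changed in opposite directions.

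The other 4 class 3 genes did not pass. Sema3g, a cue of vessel cells, had a log2 fold change of 0.66 ± 0.15 (SE, adjusted p = 0.0109, edgeR), and its groups did not overlap. Sema3e, the ligand of plexin D1 and the class 3 gene with the highest level per kb of exon, was at 70.3 ± 11.2 CPM in deletion mice and 64.0 ± 10.8 CPM in control mice (SD, n = 4 each), with an approximate 95% interval of its log2 difference from -0.15 to 0.42. Sema3c had a log2 difference of 0.34 (adjusted p = 0.111, edgeR).

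Sema3b had as large a fold change as Sema3f but rested on 1 mouse. Its levels were 4.39, 32.7, 7.65 and 2.47 CPM in deletion mice, against 10.8, 2.53, 2.03 and 6.10 CPM in control mice. Deletion 2 was far above the rest and the groups overlapped, with a log2 fold change of 1.13 ± 0.76 (SE, adjusted p = 0.364, edgeR), and without deletion 2 the log2 fold change was -0.15. Ttr, the transthyretin gene of the choroid plexus, was likewise highest in deletion 2 among the deletion mice and in control 1 and control 4 among the control mice, with 261, 9410, 1790 and 38.3 CPM in deletion mice and 1600, 17.4, 299 and 955 CPM in control mice. The part of choroid plexus RNA in Sema3b was not tested.

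Among the 13 membrane-bound semaphorins of classes 4 to 7, 2 rose, none fell and 11 did not pass, and both that rose were of class 4, whose members mostly signal through B plexins. Sema4a was at 46.4, 37.8, 43.0 and 44.8 CPM in deletion mice, against 15.7, 24.2, 18.2 and 26.1 CPM in control mice. Control 2 and control 4 were the highest of the control mice and still lay below every deletion mouse. The log2 fold change of Sema4a was 1.03 ± 0.14 (SE, adjusted p = 8.63e-04, edgeR). Sema4f, a transmembrane semaphorin, was at 22.6, 22.6, 24.7 and 23.2 CPM in deletion mice, against 15.8, 17.1, 14.4 and 15.1 CPM in control mice. Its spread within groups was small, and the log2 fold change was 0.58 ± 0.07 (SE, adjusted p = 3.90e-04, edgeR).

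Of the remaining semaphorins, 4 had an adjusted p from edgeR between 0.01 and 0.05, and in each of them the groups did not overlap. Sema6c had a log2 fold change of 0.58 ± 0.14 (SE, adjusted p = 0.0146, edgeR). Sema4b and Sema4c had log2 fold changes of 0.35 (adjusted p = 0.0478, edgeR) and 0.26 (adjusted p = 0.0286, edgeR). Sema6a, a transmembrane ligand of A plexins, had a log2 fold change of -0.32 ± 0.09 (SE, adjusted p = 0.0390, edgeR). The highest level per kb of exon in these classes was that of Sema6b, at 102 ± 8.66 CPM in deletion mice and 96.4 ± 3.40 CPM in control mice (SD, n = 4 each), with an interval of the log2 difference from -0.06 to 0.22.

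Sema7a, which is anchored by a lipid and binds integrins and plexin C1, did not pass. It was at 66.5, 67.2, 67.1 and 66.7 CPM in deletion mice, against 102, 80.5, 62.0 and 76.0 CPM in control mice. The deletion mice lay within 1 CPM of each other while the control mice spanned the deletion mice, and the log2 fold change was -0.26 ± 0.12 (SE, adjusted p = 0.167, edgeR). Sema5a was likewise wide in control mice, with 30.1, 27.7, 28.5 and 34.8 CPM in deletion mice and 18.4, 15.6, 23.2 and 42.9 CPM in control mice. Control 4 alone lay above the deletion mice, and Sema5a passed without control 4 and with 1 surrogate variable, and in no other alternative. The log2 fold changes of Sema4d, Sema4g, Sema5b and Sema6d ran from -0.07 for Sema6d to 0.14 for Sema4g (adjusted p 0.534 to 0.926, edgeR), and their groups overlapped.

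Plexins are the signalling receptors of the semaphorins, and among the 9 of them 3 rose, 1 fell and 5 missed the threshold. The 3 that rose were of the 4 in class A, none of the 3 in class B passed, and plexin D1 fell. Plxna4 was at 148, 138, 159 and 157 CPM in deletion mice, against 66.4, 82.0, 69.2 and 90.3 CPM in control mice. The lowest deletion mouse was well above the highest control mouse, control 4, and the log2 fold change was 0.97 ± 0.09 (SE, adjusted p = 8.14e-05, edgeR). Plxna1 was at 31.1, 26.3, 31.4 and 32.5 CPM in deletion mice, against 18.3, 16.5, 15.4 and 25.1 CPM in control mice. Control 4 nearly reached deletion 2, and the log2 fold change was 0.69 ± 0.14 (SE, adjusted p = 0.00649, edgeR). Plxna3 was at 28.9, 22.1, 25.5 and 25.6 CPM in deletion mice, against 12.4, 16.4, 16.5 and 18.6 CPM in control mice. Here too deletion 2 and control 4 were the nearest mice, and the log2 fold change was 0.68 ± 0.12 (SE, adjusted p = 0.00348, edgeR).

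The call for Plxna1 was lost without deletion 1, 3 or 4 or control 1, 2 or 3 (adjusted p 0.0174 to 0.0219, edgeR). That for Plxna3 was lost without deletion 1, 3 or 4 or control 2 or 3 (adjusted p 0.0104 to 0.0131, edgeR). Plxna1 was also lost without deletion 2 and control 1 together, and Plxna3 with the replicate block. The fourth class A plexin, Plxna2, had the highest level of the class, 196 ± 19.2 CPM in deletion mice and 163 ± 21.8 CPM in control mice (SD, n = 4 each), and a log2 fold change of 0.27 (adjusted p = 0.0882, edgeR).

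Plxnd1, the receptor of semaphorin 3E, was the plexin that fell. It was at 64.5, 53.5, 64.1 and 54.6 CPM in deletion mice, against 108, 100.0, 101 and 83.1 CPM in control mice. Control 4 was the lowest control mouse and lay above all deletion mice, and the log2 fold change was -0.73 ± 0.09 (SE, adjusted p = 3.81e-04, edgeR). Its promoter window is the Plxnd1 sequence printed above. Plxnb1, a receptor of class 4 semaphorins and the plexin with the highest level per kb of exon, was at 120 ± 10.8 CPM in deletion mice and 94.7 ± 8.91 CPM in control mice (SD, n = 4 each). Its groups did not overlap but its adjusted p was 0.0145 (edgeR), with a log2 fold change of 0.34. Plxnb2, Plxnb3 and Plxnc1 had log2 fold changes of 0.23, -0.01 and 0.28 and did not pass (adjusted p 0.164 to 0.940, edgeR).

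The neuropilins, the ligand-binding partners of A plexins, had opposite signs and did not pass. Nrp1, which binds semaphorin 3A and VEGF, was at 18.6, 20.2, 22.3 and 25.3 CPM in deletion mice, against 23.8, 30.3, 24.5 and 33.8 CPM in control mice. Only deletion 4 reached into the range of the control mice, and the log2 fold change was -0.38 ± 0.13 (SE, adjusted p = 0.0655, edgeR). Nrp2, which binds semaphorin 3F, was at 13.8, 12.8, 16.2 and 20.2 CPM in deletion mice, against 11.3, 10.3, 12.8 and 14.6 CPM in control mice. The ranges overlapped, and the log2 fold change was 0.36 ± 0.15 (SE, adjusted p = 0.143, edgeR).

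Of the 3 Slits, secreted repellents that bind the Robos, 1 rose, 1 fell and 1 did not pass. Slit1 was at 50.2, 37.7, 52.0 and 53.6 CPM in deletion mice, against 16.2, 25.1, 22.2 and 35.2 CPM in control mice. Deletion 2 and control 4 nearly met, and the log2 fold change was 0.97 ± 0.20 (SE, adjusted p = 0.00683, edgeR). Slit3 was at 35.6, 31.2, 35.8 and 38.2 CPM in deletion mice, against 53.0, 49.4, 47.7 and 41.7 CPM in control mice. Control 4 was again the nearest control mouse, and the log2 fold change was -0.45 ± 0.08 (SE, adjusted p = 0.00432, edgeR). Slit2 had a log2 fold change of -0.14, with an interval from -0.39 to 0.12 (adjusted p = 0.483, edgeR). The call for Slit1 was lost without deletion 1, 3 or 4 or control 2 or 3 (adjusted p 0.0202 to 0.0254, edgeR). That for Slit3 was lost without deletion 1 or 3 or control 1, 2 or 3 (adjusted p 0.0112 to 0.0144, edgeR). Slit1 was also lost with dispersion fitted robustly (adjusted p = 0.03, edgeR). Slit3 was also lost with the replicate block and without deletion 2 and control 1 together.

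None of the 4 Robos passed. Robo2, the Robo with the highest level per kb of exon, was at 182 ± 10.4 CPM in deletion mice and 187 ± 12.9 CPM in control mice (SD, n = 4 each), and the interval of its log2 difference was -0.17 to 0.10. For Robo1 that interval was -0.27 to 0.08. Both intervals hold 0. Robo3, at a low 7.15 ± 2.40 CPM in deletion mice and 4.37 ± 1.27 CPM in control mice (SD, n = 4 each), had a log2 difference of 0.71 (adjusted p = 0.0955, edgeR) and Robo4, the endothelial Robo, one of -0.17 (adjusted p = 0.608, edgeR).

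Of the 4 netrins, secreted laminin-related cues, 2 rose and 2 did not pass. Ntn1, the founding netrin, which attracts axons through Dcc and repels them through Unc5 receptors, was at 50.7, 40.4, 45.1 and 45.5 CPM in deletion mice, against 16.2, 28.4, 19.2 and 26.7 CPM in control mice. Control 2 and control 4 were the highest control mice and stayed below all deletion mice, and the log2 fold change was 1.01 ± 0.16 (SE, adjusted p = 0.00165, edgeR). Ntn4, a laminin-binding netrin of basement membranes, was at 15, 15, 14.3 and 13.2 CPM in deletion mice, against 6.83, 7.12, 6.79 and 10.3 CPM in control mice. Apart from control 4 the control mice were close together, and the log2 fold change was 0.89 ± 0.14 (SE, adjusted p = 0.00140, edgeR). Its promoter window is printed above.

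Ntn3 showed no difference larger than its spread, with an interval of its log2 difference from -0.20 to 0.22, though its exons overlap those of the more abundant Tbc1d24. Ntn5 was close to the detection limit, at 0.0862 to 0.431 CPM in deletion mice and 0 to 1.01 CPM in control mice, and its fold change could not be fixed at this depth. The netrin-Gs, membrane-bound relatives that pair with Lrrc4 proteins at synapses, had log2 fold changes of -0.36 for Ntng1 (adjusted p = 0.124, edgeR) and -0.42 for Ntng2 (adjusted p = 0.434, edgeR), whose exons overlap those of the more abundant 6530402F18Rik.

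Among the netrin receptors Dcc fell and the 4 Unc5 genes did not pass. Dcc, the receptor through which netrin-1 attracts, was at 47.6, 47.6, 54.1 and 53.0 CPM in deletion mice, against 86.7, 93.6, 82.4 and 74.1 CPM in control mice. The groups were far apart, and the log2 fold change was -0.74 ± 0.08 (SE, adjusted p = 1.27e-04, edgeR), the steepest fall of the members that passed. Unc5b, the Unc5 receptor with the highest level per kb of exon, was at 51.6 ± 5.39 CPM in deletion mice and 52.8 ± 10.6 CPM in control mice (SD, n = 4 each). The log2 fold changes of Unc5a, Unc5c and Unc5d were 0.24, -0.15 and 0.19 (adjusted p 0.154 to 0.672, edgeR).

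Ephrin-A genes encode lipid-anchored ligands of EphA receptors, and of the 5 only Efna3 passed. It was at 26.4, 25.4, 24.9 and 29.3 CPM in deletion mice, against 21.6, 21.8, 20.9 and 19.9 CPM in control mice. The groups did not overlap, and the log2 fold change was 0.33 ± 0.07 (SE, adjusted p = 0.00695, edgeR). The call was lost without deletion 1, 3 or 4 or without any 1 of the 4 control mice (adjusted p 0.0126 to 0.0221, edgeR). It was also lost in 4 of the 13 other alternatives to the main fit. Efna1, Efna3 and Efna4 lie side by side on chromosome 3, with 32.8 kb and 10.4 kb between them. Efna1 and Efna4 had log2 fold changes of 0.22 and 0.30 with wide intervals (-0.17 to 0.60 and -0.68 to 1.27), and Efna4 was at 0.0797 to 0.356 CPM over the 8 mice. The log2 fold changes of Efna2 and Efna5 were -0.05 and -0.06, with intervals of -0.57 to 0.48 and -0.31 to 0.18.

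Of the 3 ephrin-Bs, transmembrane ligands of EphB receptors that also signal backward, Efnb1 rose. It was at 21.3, 18.1, 15.7 and 16.8 CPM in deletion mice, against 9.85, 11.8, 12.2 and 11.6 CPM in control mice. Every control mouse lay below deletion 3, the lowest of its group, and the log2 fold change was 0.66 ± 0.11 (SE, adjusted p = 0.00222, edgeR). Efnb3, with the highest level per kb of exon of all 71 genes, was at 170 ± 8.62 CPM in deletion mice and 183 ± 14.4 CPM in control mice (SD, n = 4 each), and the interval of its log2 difference was -0.24 to 0.03. Efnb2 had a log2 difference of 0.25 (adjusted p = 0.0924, edgeR).

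EphA receptors are tyrosine kinases that bind ephrin-As on neighbouring cells. Among the 9 receptors 2 rose, none fell and 7 missed the threshold. Epha10, whose kinase domain lacks activity, was at 21.3, 19.5, 20.2 and 21.7 CPM in deletion mice, against 9.11, 7.81, 9.72 and 11.6 CPM in control mice. The deletion mice were tight and far above the control mice, and the log2 fold change was 1.11 ± 0.11 (SE, adjusted p = 1.02e-04, edgeR). Epha6 was at 77.0, 73.1, 73.2 and 74.8 CPM in deletion mice, against 62.9, 66.9, 62.3 and 61.6 CPM in control mice. The groups did not overlap but the difference was the smallest of those that passed, with a log2 fold change of 0.23 ± 0.05 (SE, adjusted p = 0.00587, edgeR). This call was lost without deletion 1, 2, 3 or 4 or control 1, 3 or 4 (adjusted p 0.0103 to 0.0223, edgeR). It was also lost in 4 of the 13 other alternatives to the main fit.

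Epha4, which binds both ephrin-As and ephrin-Bs and had the highest level per kb of exon of all receptors, was at 340, 340, 335 and 330 CPM in deletion mice, against 454, 390, 397 and 375 CPM in control mice. The deletion mice were nearly equal and all below the control mice, and the log2 fold change was -0.26 ± 0.06 (SE, adjusted p = 0.0134, edgeR). Epha2 was low, at 1.49, 1.33, 1.54 and 1.51 CPM in deletion mice, against 2.17, 1.78, 4.12 and 1.91 CPM in control mice. Control 3 stood above the rest, and the log2 fold change was -0.76 ± 0.26 (SE, adjusted p = 0.0724, edgeR). Epha1, Epha3, Epha5, Epha7 and Epha8 overlapped between the groups, with log2 fold changes from -0.35 for Epha3 to 0.23 for Epha1.

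No EphB receptor passed. Ephb2 was at 13.5, 11.5, 10.8 and 11.9 CPM in deletion mice, against 7.08, 6.80, 6.77 and 10.8 CPM in control mice. Control 4 almost reached the deletion mice while the other control mice lay far below, and the log2 fold change was 0.60 ± 0.16 (SE, adjusted p = 0.0226, edgeR). Among the fits with 1 mouse left out, Ephb2 passed in the one without control 4. It also passed with DESeq2, with no filter, with 1 surrogate variable and without deletion 4 and control 4 together. Ephb6, which like Epha10 lacks kinase activity, had the highest level per kb of exon of the EphB genes, with 148 ± 12.6 CPM in deletion mice and 130 ± 10.6 CPM in control mice (SD, n = 4 each) and a log2 fold change of 0.18 (adjusted p = 0.124, edgeR). The lowest log2 fold change of the family was that of Ephb1, -0.06, with an interval from -0.21 to 0.08.

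**Figure D3:**
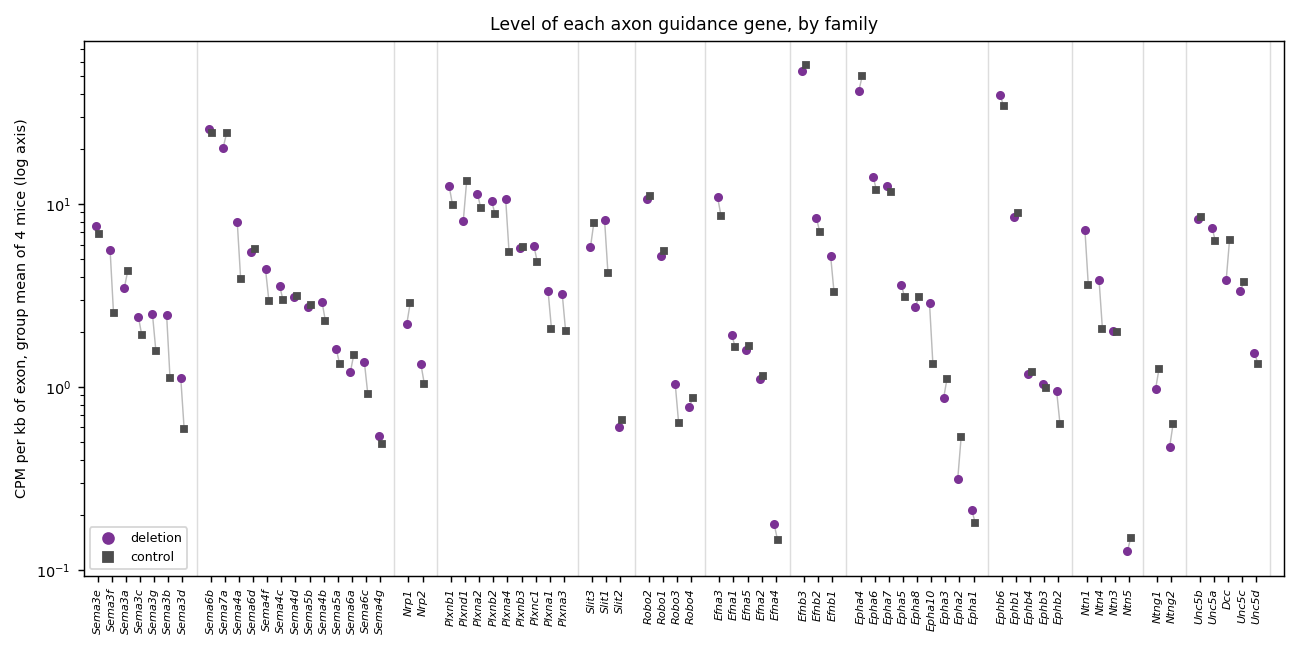
The mean level of each of the 71 genes per kb of exon (vertical log axis, CPM per kb) is plotted by family, with circles for deletion mice and squares for control mice (n = 4 each). Efnb3, Epha4 and Ephb6 are the 3 highest. Most of the wide gaps between circle and square lie below 10 CPM per kb, as do all but 11 of the 71 genes.

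Levels of different genes can be compared only after division by exon length. On that scale, over all 8 mice, Efnb3 was highest at 55.4 CPM per kb, ahead of Epha4 at 46.0, Ephb6 at 36.8, Sema6b at 25.0 and Sema7a at 22.3 CPM per kb. None of these 5 genes passed. In all, 11 genes reached 10 CPM per kb, of which 2 passed (Epha6 and Plxnd1), and 12 genes stayed below 1 CPM per kb. All 4 genes that fell were among the 35 genes above the median level of 3.12 CPM per kb, where 9 rose and 22 did not pass. Among the 36 genes at or below it, 5 rose, none fell and 31 did not pass. Over all genes tested 4.87% rose and 3.91% fell, at any level. A dependence of the direction on level was not tested.

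Ligand and receptor values can be set side by side where a pair is well known. For Ntn1 and Dcc the log2 fold changes were 1.01 and -0.74, for Slit1 and Robo2 0.97 and -0.03, for Sema3f and Nrp2 1.13 and 0.36, for Sema3a and Nrp1 -0.31 and -0.38, and for Sema3e and Plxnd1 0.14 and -0.73. These are values of single genes in whole tissue, and no difference between a ligand and its receptor was tested.

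Downstream of the receptors, a list of 73 co-receptors and intracellular effectors of guidance, drawn up for their known roles, was read from the same fit. Of its 73 genes, all tested, 7 rose (9.59%, background 4.87%), 8 fell (11%, background 3.91%) and 58 did not pass, and its median log2 fold change was 0.06. Rnd1, a small GTPase that binds plexins, was at 26.2, 23.8, 24.0 and 23.6 CPM in deletion mice, against 4.90, 7.28, 4.30 and 7.29 CPM in control mice. This gap was wider than that of any of the 71 ligands and receptors that passed, with a log2 fold change of 2.04 ± 0.16 (SE, adjusted p = 2.54e-05, edgeR). Srgap1, a GTPase-activating protein that acts below the Robos, was at 23.0, 19.4, 24.2 and 22.5 CPM in deletion mice, against 41.9, 44.6, 42.5 and 39.3 CPM in control mice. Here the deletion mice were far below, with a log2 fold change of -0.92 ± 0.08 (SE, adjusted p = 3.36e-05, edgeR).

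Ablim1, an actin-binding protein, rose by 0.53 ± 0.07 on the log2 scale (SE, adjusted p = 6.92e-04, edgeR). The CRMP gene Dpysl3 rose by 0.77 ± 0.14 (SE, adjusted p = 0.00373, edgeR), and the adhesion gene Cntn4 had a log2 fold change of -0.36 ± 0.07 (SE, adjusted p = 0.00452, edgeR). Tiam1, a Rac activator, had a log2 fold change of -0.55 ± 0.07 (SE, adjusted p = 6.53e-04, edgeR). Ngef, the exchange factor ephexin that EphA receptors use, fell by 0.33 (adjusted p = 0.00693, edgeR). Gsk3b, a kinase of CRMP proteins, fell by 0.37 (adjusted p = 0.00199, edgeR), and Flrt3, a ligand of Unc5 receptors, by 0.43 (adjusted p = 0.00777, edgeR). Chn2, a Rac-inhibiting chimaerin, and Gpc1, a glypican that binds Slits, rose, with log2 fold changes of 0.53 and 0.44 (adjusted p 0.00248 and 0.00172, edgeR). Chn1, Enah and Dpysl4 also passed.

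Of the 15 effectors past the threshold, those lost in 4 or more of the 8 fits with 1 mouse left out were Flrt3, Cntn4, Dpysl3, Dpysl4, Enah, Ngef and Chn1, and Chn2 was lost without deletion 1. Over all 21 alternatives, Gsk3b and Chn2 were each lost in 2 and Gpc1 in 1. With 1 mouse left out, 3 to 12 effectors rose and 4 to 7 fell, the fewest rises without deletion 1 and the most without control 4, and the fewest falls without deletion 2 or 3 or control 1, 2 or 3. The share of all genes that passed in these fits is not given.

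Reads were assigned to genes with a strand setting not given in the sources used here, so overlapping exons matter. Exons of 19 of the 71 genes overlap those of another annotated gene, among them 6 that passed: Sema4a, Plxna1, Plxna4, Efna3, Epha6 and Epha10. For Plxna1 the overlap with the antisense gene Gm26811 is 970 bases, and that gene had at most 1.85 CPM in any mouse. For Efna3 the overlap with Gm15998 is 344 bases, with at most 1.11 CPM. For 5 genes that did not pass, the overlapping gene reached a level above the lowest level of the member, so the values of all 5 are uncertain. Ntn3 overlaps Tbc1d24, which was at 64.1 to 91.0 CPM, Ntng2 overlaps 6530402F18Rik at 4.22 to 6.67 CPM, and Epha1 overlaps Zyx at 4.88 to 6.54 CPM. The other 2 were Efna4 and Ntn5, which are themselves close to 0. Pairs within 1 Mb of each other numbered 11, and among them were Robo3 and Robo4, 0.554 kb apart on chromosome 9, with log2 fold changes of 0.71 and -0.17, and Plxnb3 and Plxna3, 557 kb apart on the X chromosome, with -0.01 and 0.68.

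**Figure D4:**
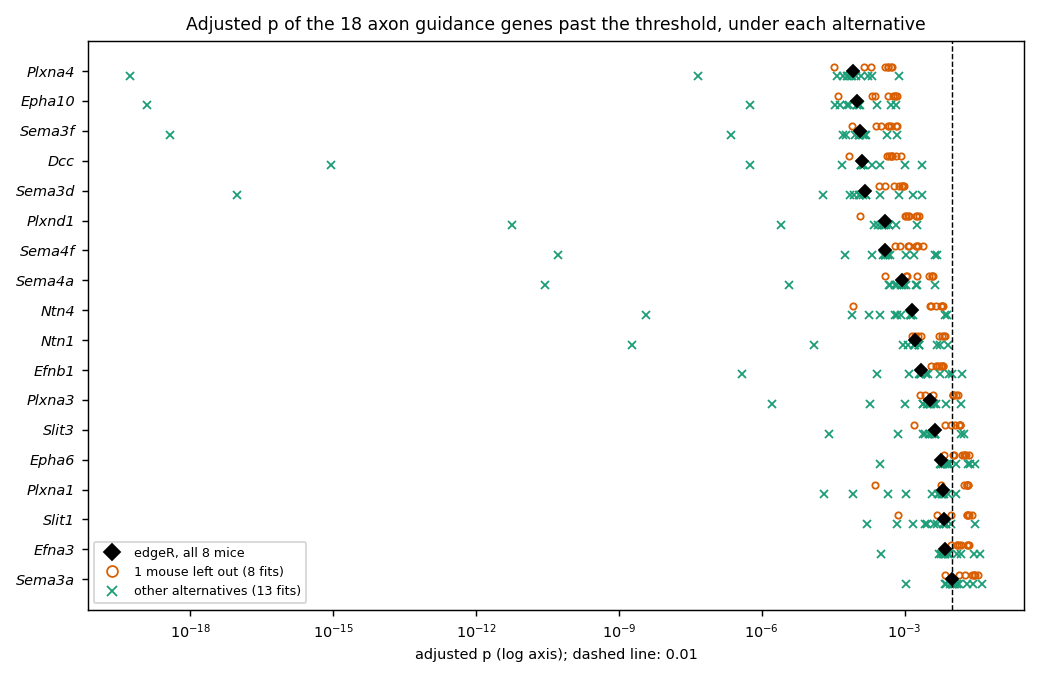
The adjusted p of the 18 genes past the threshold (horizontal log axis, dashed line at 0.01) is plotted for all 8 mice with edgeR (diamonds), for the 8 fits with 1 mouse left out (circles) and for 13 other alternatives (crosses). For 10 genes every symbol lies left of the line, and for the other 8 at least 1 lies to its right.

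The 18 calls were not equally firm. Sema3d, Sema3f, Sema4a, Sema4f, Plxna4, Plxnd1, Epha10, Ntn1, Ntn4 and Dcc passed in all 21 alternatives, and Efnb1 in all but the fit with the replicate number as a block. Without the libraries richest in choroid plexus markers (deletion 2 and control 1) 13 members passed, 11 of them higher and 2 lower. Without those richest in cortical markers (deletion 4 and control 4) 17 passed, 14 higher and 3 lower. With 1 mouse left out, 11 to 17 members passed, the fewest without deletion 1 or deletion 3. The share of all genes that passed in these smaller fits is not given, so their counts have no background beside them.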

How the data were processed

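Total RNA of the striatum was depleted of ribosomal RNA, fragmented, primed with random hexamers and sequenced as paired ends, so counts scale with transcript length. Per the methods and the submitters' processing notes, the authors trimmed reads with Trim Galore 0.6.4, aligned them to GRCm38 with STAR 2.7.2b and counted them per gene with featureCounts. The deposited counts are not normalized. The deposited log2 values are DESeq2's rlog transformation of features whose counts summed to 2 or more, and they were recomputed here to within 0.000525.

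The counts were fitted with edgeR 4.0.16 in R 4.3.3 (filterByExpr with a minimum count of 10 and a minimum total of 15, TMM normalization with factors from 0.991 to 1.02, group alone as covariate, Benjamini-Hochberg adjustment over 22173 genes, threshold 0.01), and checked on simulated data. Approximate 95% intervals are the log2 fold change plus or minus t times its SE, where the SE comes from the F statistic. CPM use the TMM-scaled library size, and CPM per kb use the union of exons in GENCODE M21. Promoter windows come from RefSeq (GRCm38.p6). All 71 symbols matched 1 annotated gene. The libraries come from separate mice, and intervals and p-values cover the spread between those mice.

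Named with values in every mouse are all members past the threshold. Also named are members with an adjusted p of 0.01 to 0.05, the highest level per kb and the largest and smallest log2 fold change of each family, and the 12 effectors with the smallest p, and other names were added after their values were seen. The values of 1 effector are not reported here. The members, gene lists and tests were chosen with earlier results of these data known.

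Alternatives were DESeq2 1.42.0, limma-voom and limma on the log2 values (limma 3.58.1), library sizes alone or RLE size factors in place of TMM, every gene kept, genes kept at 1 CPM in 4 mice, dispersion fitted robustly, a block for the replicate number, 1 surrogate variable (sva 3.50.0), counts thinned to the smallest library, a threshold of 0.05 and each mouse left out. Leaving out the libraries richest in choroid plexus markers or in cortical markers was chosen after seeing the data.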

Additional observations from a re-analysis of the deposited data

Results flagged for a closer look

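The 4 levels of each group were searched for 1 mouse far from the other 3, by the gap to its nearest neighbour as a share of the group's range against Dixon's critical value. Of 144 groups examined (71 genes and Bcl11b, each in both groups of mice) 5 stood out, where chance gives about 1 in 20, or 7.2. Ntn4 was at 10.3 CPM in control 4, against 6.79 to 7.12 CPM in the other control mice. Ephb2 was at 10.8 CPM in the same mouse, against 6.77 to 7.08 CPM in the others. Epha2 was at 4.12 CPM in control 3, against 1.78 to 2.17 CPM. Epha7 was at 136 CPM in deletion 4, against 120 to 121 CPM in the other deletion mice, and Plxnc1 was at 40.4 CPM in deletion 2, against 51.1 to 52.7 CPM.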

How the results depend on the processing

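Of the 18 members past the threshold with all 8 mice, 10 passed in every alternative and none changed sign. Their 378 values under 21 alternatives held 64 that no longer passed. The count of members that passed was 25 with DESeq2 (all 18 among them), 17 with limma-voom and 22 with no filter. At a threshold of 0.05 it was 26, where 17.2% of all genes tested passed, beside 8.78% at 0.01. With 1 mouse left out it was 11 to 17, with 9 to 14 higher and 2 to 3 lower, where all 8 mice gave 14 higher and 4 lower. The 9 rises were without deletion 1, deletion 3 or control 3, and the 2 falls without deletion 1, deletion 3, control 1 or control 2. Without deletion 2 and control 1, 2 members fell. Without deletion 4 and control 4, 15 of the 17 that passed were among the 18. The same-numbered mice of the 2 groups are not paired by the labels, and their deviations from the group means correlated at -0.234 to 0.0623, none highest with its own number. With the replicate number as a block 12 members passed, all among the 18, with 10 higher and 2 lower. The share of all genes that passed is given only for the edgeR fit of all 8 mice, at 0.01 and 0.05. Bcl11b stayed lower and past the threshold in all 21 alternatives.

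Among the 53 members that did not pass, 8 passed in at least 1 of the 21 alternatives. These were Sema3g (in 6), Ephb2 (5), Plxnb1 (4), Epha4 (3), Sema5a and Sema6c (2 each), and Sema4c and Sema6a (1 each). Of the 53, 12 changed sign in at least 1 alternative. With 1 mouse left out the log2 fold changes of these 12 ran from -0.18 to 0.16 for Efna2, -0.10 to 0.01 for Efna5, -0.16 to 0.07 for Ephb4, -0.02 to 0.06 for Ntn3, -0.68 to 1.34 for Ntn5, -0.06 to 0.05 for Plxnb3, -0.06 to 0.01 for Robo2, -0.15 to 1.73 for Sema3b, -0.09 to 0.02 for Sema4d, -0.14 to 0.09 for Sema5b, -0.09 to 0.12 for Unc5b and -0.04 to 0.37 for Unc5d. Without deletion 2 and control 1 the values with a changed sign were 0.03 for Efna2, 0 for Plxnb3, 0.04 for Sema4d, 0 for Sema5b and 0.07 for Unc5b. Without deletion 4 and control 4 they were 0.07 for Ephb4, -0.04 for Ntn3, 1.06 for Ntn5, 0.01 for Plxnb3 and 0.03 for Sema4d. With 1 surrogate variable they were -0.01 for Ntn3, 1.24 for Ntn5, 0.02 for Sema4d and 0.04 for Sema5b. For Ntn3 library sizes alone gave 0, and for Ntn5 limma-voom gave 0.87 and the replicate block 0.27. The cause of these changes of sign was not tested. With 4 mice a group, the low-level genes Ntn5, Efna4 and Epha1 had wide intervals of the log2 difference. These were -2.2 to 1.67 for Ntn5, -0.68 to 1.27 for Efna4 and -0.41 to 0.86 for Epha1.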
